A study of Homo sapiens with 6 samples.

Results

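Calcium channels, pumps, release channels and sensors set the level of free calcium in a neuron-like cell, and the 37 genes described here are those of 41 on a fixed list for which the array annotation gave a probe set naming that gene alone. The list covers voltage-gated channels, pumps and exchangers, channels of the internal store, store-operated entry, the mitochondrial uniporter, calmodulin-dependent signalling and buffers, and its remaining 4 genes are not analysed here. The 37 genes had 119 probe sets, between 1 and 9 each, out of 18132 genes and 49293 probe sets tested. Each gene is represented by its brightest probe set over the 6 arrays, and 30 of the 37 had several to choose from.

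All samples were cultures of SH-SY5Y, a long-established neuroblastoma line with traits of sympathetic neurons, kept in MEM and F12 medium with fetal serum. For the endosulfan group (3 arrays) endosulfan, an organochlorine insecticide that blocks chloride channels gated by GABA, was given for 24 h at 3 µM, which by the labels is a fraction of the LC50. The control group (3 arrays) is marked as such by its agent label alone, and whether it received a vehicle is not stated there. The labels call the arrays biological replicates without naming cultures or days, so p-values measure the spread between these samples, which may in part be technical.

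Calcium enters such cells through voltage-gated channels in the plasma membrane and leaves the endoplasmic reticulum store through inositol trisphosphate and ryanodine receptors. Pumps return it to the store or, with the sodium-calcium exchangers, carry it out of the cell. When the store empties, STIM sensors in its membrane open ORAI channels at the surface. Calmodulin and its kinase read the signal, and calbindins buffer it. The question that the comparison addresses is which of these transcripts differ between exposed and control cells.

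The values are log2 levels from a method called RMA, and levels of different genes are not compared, since each probe set has its own brightness. Array medians lay between 4.89 and 4.94. The label names neuroblastoma, and all 13 measured markers of adrenergic neuroblastoma cells lay above the median gene level. The bacterial RNAs spiked in before labelling were at 5.84 to 7.73 in control and 7.73 to 8.80 in endosulfan arrays (mean log2 of 24 probe sets, 3 arrays a group, two-sided exact permutation p = 0.2, with 0.1 the lowest p possible). Control 2, endosulfan 1 and endosulfan 2 were close together on this measure, at 7.73, 7.81 and 7.73, while control 1 was at 6.13 and control 3 at 5.84. The mean of the adrenergic markers was at 11.03 to 11.15 in control and 10.74 to 10.85 in endosulfan arrays. These 13 markers had a median log2 fold change (endosulfan minus control) of -0.013, so the lower mean was not a shift shared by the whole list. By limma 0 of them were past the threshold. Epithelial markers (1 of 6 measured above the median gene level) were at 4.60 to 4.82 and 4.82 to 4.92, haematopoietic markers (0 of 4) at 3.76 to 3.86 and 3.86 to 3.96, fibroblast or mesenchymal markers (2 of 8) at 4.73 to 4.95 and 4.67 to 4.73, and Schwann or glial markers (2 of 4) at 5.70 to 5.80 and 5.62 to 5.93. Arrays give no true 0, and the part of the spike-ins and of these markers in the results was not tested. In such bulk RNA, fewer cells of a type and less of an RNA per cell cannot be told apart.

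None of the 37 genes passed the test: by limma, with Benjamini-Hochberg adjustment over all genes, 0 were under 0.05, against 0.00552% of all genes, which is 1 gene, the immediate early factor EGR1 (1.74 on the log2 scale, adjusted p 0.0103). The largest difference among the calcium genes was that of ITPR1, the main neuronal inositol trisphosphate receptor, at 1.88-fold lower in endosulfan arrays. The store pump ATP2A2 and the sodium-calcium exchanger SLC8A3 followed, each at a log2 fold change of -0.59. On the higher side the differences were smaller and reached 1.30-fold, in ITPR2. The smallest adjusted p was 0.21, for CACNA1B. With limma's p before adjustment, 6 genes were lower at a p below 0.05, where 10.5% of all genes are, and 3 higher, where 6.64% are, or 16.2% and 8.11% of the 37. Regardless of p, 14 of the 37 had a log2 fold change below 0 (37.8%, against 39.8% of all genes) and 23 above 0 (62.2%, against 60.2%). The median log2 fold change of the 37 genes was 0.07, beside 0.05 over all genes. Without endosulfan replicate 3 the 6 became 3. The 3 became 1 without control replicate 1, endosulfan replicate 1 or endosulfan replicate 3, and 6 without endosulfan replicate 2. Leaving out replicate 1 of both groups gave 3 lower and 0 higher, and a fit that includes the spike-in level gave 0 in either direction. The spike-in level was on average higher in endosulfan arrays, so that fit cannot fully separate it from the group difference. Shares of all genes were not counted in these settings, and whether the shifts are particular to the calcium genes was not tested.

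**Figure D1:**
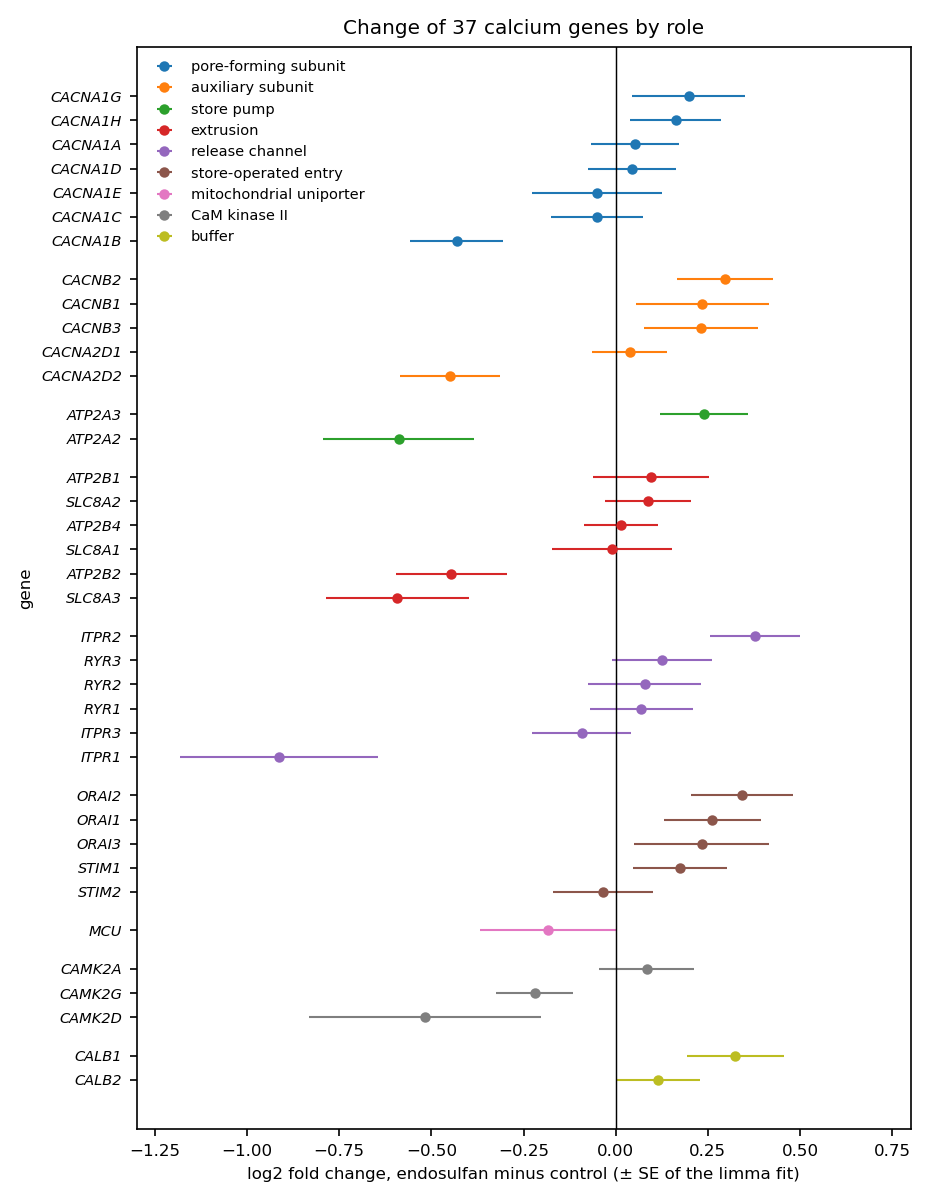
The log2 fold change (x axis, endosulfan minus control, bars ± SE of the limma fit) of each of the 37 genes (y axis), coloured by role. ITPR1 lies farthest to the left at -0.91 and ITPR2 farthest to the right at 0.38.

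The groups did not overlap in 14 of the genes. In 7 every endosulfan array was below every control array (18.9%, against 10.2% of all genes): ITPR1, ATP2A2, SLC8A3, CACNA1B, CACNA2D2, ATP2B2 and CAMK2G. In another 7 every endosulfan array was above (18.9%, against 12.4% of all genes): ITPR2, ORAI2, ORAI1, CALB1, CACNB2, ATP2A3 and STIM1. In the 7 lower genes control 1 was the control array farthest from the endosulfan arrays in 6, and control 2 was the nearest in 6. In the 7 higher genes control 1 was the farthest in all 7. The endosulfan array nearest to the controls was endosulfan 1 in 4 and endosulfan 2 in 3 of the 7 lower genes. In the 7 higher genes it was endosulfan 2 in 4 and endosulfan 3 in 3. These positions were not counted over all genes.

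**Figure D2:**
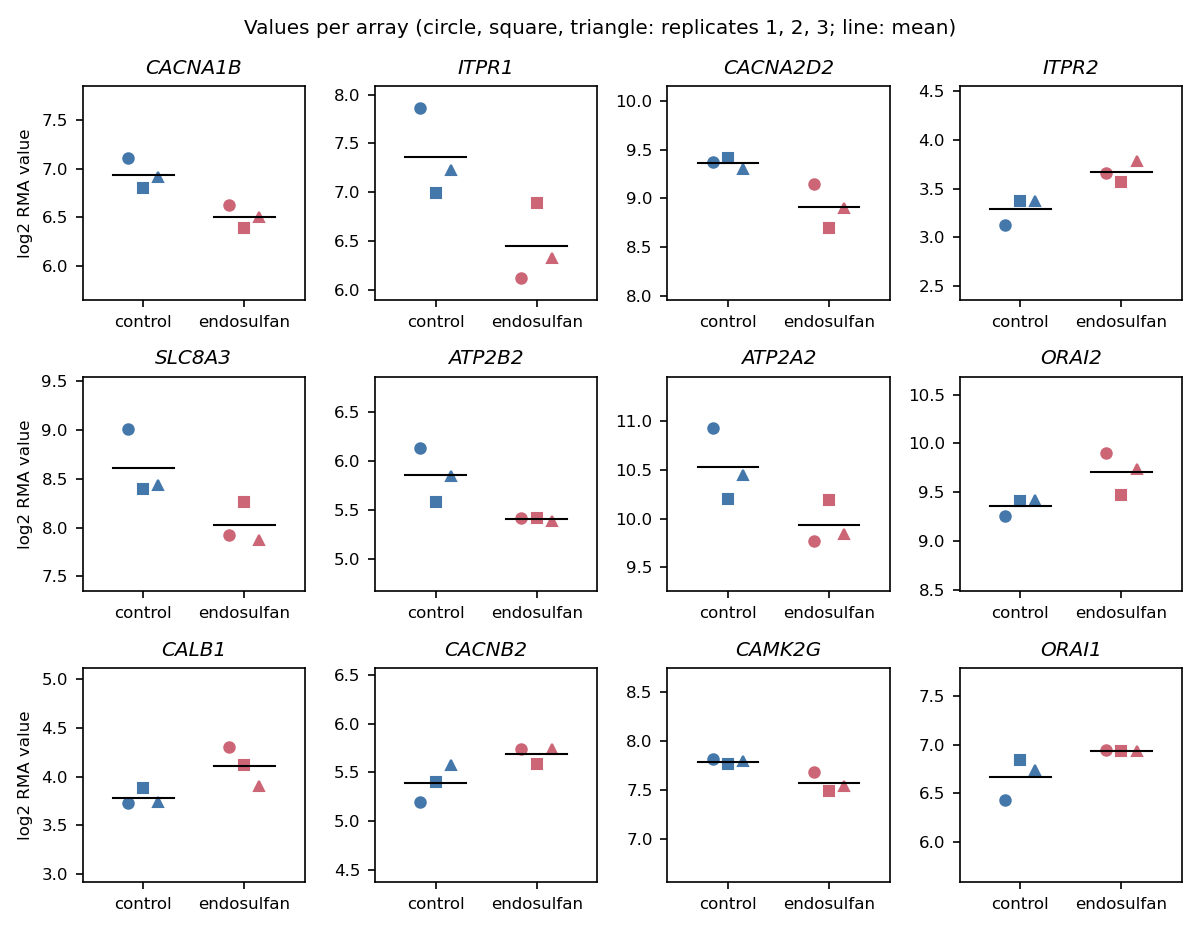
Log2 RMA values (y axis) of the 12 genes with the smallest p in each control and endosulfan array, with the group mean as a line. Every panel spans the same range on the log2 scale, and in all 12 the groups are apart, by a gap of 0.008 in CACNB2 and 0.012 in ATP2A2.

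Promoter sequences are shown for 5 of these genes, ITPR1 as the largest difference and 4 of the 12 genes of smallest p because they hold a match to a site form of EGR1, the factor whose own gene was the one past the threshold. They are the 250 bases before a start site in RefSeq on GRCh38.p14, 5′ to 3′ on the gene's strand, with matches to the EGR1 site forms GCGTGGGCG and GCGGGGGCG in capitals. The windows are upstream of the transcripts, at chr3:4493098-4493347 (+ strand) for ITPR1, chr12:110280997-110281246 (+ strand) for ATP2A2, chr3:50503635-50503884 (- strand) for CACNA2D2, chr9:137877532-137877781 (+ strand) for CACNA1B and chr7:102433325-102433574 (+ strand) for ORAI2.
ITPR1: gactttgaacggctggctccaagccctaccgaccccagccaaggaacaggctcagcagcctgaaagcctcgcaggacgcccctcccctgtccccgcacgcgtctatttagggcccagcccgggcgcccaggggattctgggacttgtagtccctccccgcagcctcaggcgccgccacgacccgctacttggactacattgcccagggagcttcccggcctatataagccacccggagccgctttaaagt
ATP2A2: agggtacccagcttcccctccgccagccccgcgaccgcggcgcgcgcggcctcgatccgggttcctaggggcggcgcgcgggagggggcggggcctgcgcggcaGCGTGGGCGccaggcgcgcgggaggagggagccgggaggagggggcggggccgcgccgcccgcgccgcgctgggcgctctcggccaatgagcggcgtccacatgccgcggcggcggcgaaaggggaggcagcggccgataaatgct
CACNA2D2: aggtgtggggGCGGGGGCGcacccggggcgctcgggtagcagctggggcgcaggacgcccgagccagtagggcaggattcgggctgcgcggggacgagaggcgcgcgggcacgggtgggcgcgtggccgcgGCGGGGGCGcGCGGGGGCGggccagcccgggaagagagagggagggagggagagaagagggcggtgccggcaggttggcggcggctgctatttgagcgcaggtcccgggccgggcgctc
CACNA1B: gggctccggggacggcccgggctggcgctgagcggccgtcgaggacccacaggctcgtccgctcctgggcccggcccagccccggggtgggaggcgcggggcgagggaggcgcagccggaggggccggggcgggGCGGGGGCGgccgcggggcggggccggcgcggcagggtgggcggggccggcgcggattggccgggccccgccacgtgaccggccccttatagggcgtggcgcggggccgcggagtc
ORAI2: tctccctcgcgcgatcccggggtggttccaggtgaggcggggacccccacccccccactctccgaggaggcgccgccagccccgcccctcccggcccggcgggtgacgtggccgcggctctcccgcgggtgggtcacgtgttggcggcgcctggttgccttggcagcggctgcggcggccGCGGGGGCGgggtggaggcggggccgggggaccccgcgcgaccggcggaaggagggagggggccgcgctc
Both strands were searched for exact matches, and the forms do not overlap each other in these windows. GCGTGGGCG was found before 1 of the 30 genes with a window, ATP2A2, at 1 of its start sites, and before 0.886% of all 27305 genes in the table. GCGGGGGCG was found before 5 of the 30, namely CACNA2D2, CACNA1B, ORAI2, CACNA1A and STIM1, and before 5.74% of all genes. CACNA2D2 had 3 matches, all at 1 of its start sites. STIM1 had a single site, in the overlapping windows of some of its start sites and not in its other windows. The cAMP and calcium response element TGACGTCA was found before 0 of the 30 and before 2.03% of all genes. These matches are letters in a window and do not show binding, and the genes that hold them lay on both sides: ATP2A2, CACNA2D2 and CACNA1B lower, ORAI2 and STIM1 higher and CACNA1A close to 0. CACNA1G, CACNA1H, ATP2A3, ITPR2, ORAI1, CALB1 and CALB2 had no entry in the table.

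Of the 7 pore-forming subunits of voltage-gated channels, 1 was lower and 0 were higher at an unadjusted p below 0.05, a share near that of all genes (10.5% lower and 6.64% higher). CACNA1B, the pore of the N-type channel that feeds transmitter release, was at 7.11, 6.80 and 6.91 in control arrays 1 to 3 and at 6.62, 6.39 and 6.51 in endosulfan arrays 1 to 3. All control values were above all endosulfan values, by at least 0.17. The means were 6.94 ± 0.16 and 6.51 ± 0.12 (SD, n = 3 each), and the log2 fold change was -0.43 ± 0.13 (SE), with a limma adjusted p of 0.21. Its promoter is among those printed above. The second probe set of CACNA1B was at 0.08, so the difference stood on 1 of the 2, and the mean of both was -0.17.

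The other 6 pores had log2 fold changes between -0.05 and 0.20. The T-type channel pores CACNA1G and CACNA1H, which open at low voltage, had log2 fold changes of 0.20 and 0.16, with overlapping groups. CACNA1A, of the P/Q-type, was at 0.05, and the L-type pores CACNA1C and CACNA1D were at -0.05 and 0.04. CACNA1E, of the R-type, was at -0.05, with endosulfan arrays spread from 3.41 to 4.06. All values of CACNA1H, CACNA1A, CACNA1D and CACNA1E lay below the array medians. CACNA1C had 8 probe sets, from -0.33 to 0.23. One of these, chosen after its values were seen, was at 3.62 to 3.71 in control and 3.37 to 3.41 in endosulfan arrays, far below the array medians. With a spike-in covariate CACNA1G, CACNA1A, CACNA1D and CACNA1E had the other sign.

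Among the auxiliary subunits, which traffic the pores and tune their gating, CACNA2D2 lay on the lower side and the other 4 measured on the higher. CACNA2D2, an alpha-2-delta subunit of the type that gabapentin binds, was at 9.37, 9.41 and 9.30 in control arrays and at 9.14, 8.69 and 8.90 in endosulfan arrays. The control arrays were tightly grouped and all above the endosulfan arrays, of which endosulfan 1 was nearest. The means were 9.36 ± 0.05 and 8.91 ± 0.23 (SD, n = 3 each), 1.37-fold apart, with a log2 fold change of -0.45 ± 0.14 (SE) and a limma adjusted p of 0.215. Its second probe set was at -0.39, with groups apart as well. The value was -0.56 without replicate 1 of both groups and -0.51 with a spike-in covariate, the one among the 7 lower genes that did not shrink in either setting. CACNA2D1 was at 0.04, with all its values below the array medians.

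The 3 measured beta subunits were on the higher side. CACNB2 was at 5.20, 5.41 and 5.58 in control and 5.74, 5.58 and 5.74 in endosulfan arrays. Control 3 and endosulfan 2 were 0.008 apart, and the log2 fold change was 0.30 ± 0.13 (SE), with a limma adjusted p of 0.296. Its 9 probe sets ran from -0.39 to 0.30, with 4 on the lower side, and the median of the probe sets gave -0.14. CACNB1 and CACNB3 were at 0.24 and 0.23, with overlapping groups and all 7 of their probe sets on the higher side. Endosulfan 2 was below the highest control array in CACNB3. In CACNB1 it was the lowest of the 6 arrays, at 5.90 against 5.95 to 6.14 in control arrays.

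Of the pumps that fill the endoplasmic reticulum store, ATP2A2 and ATP2A3 lay on opposite sides. ATP2A2, the pump found in most tissues, was at 10.93, 10.21 and 10.44 in control arrays and at 9.78, 10.19 and 9.84 in endosulfan arrays. Control 1 was high and endosulfan 1 and 3 were low, whereas control 2 and endosulfan 2 were nearly level, 0.012 apart. The means were 10.53 ± 0.37 and 9.94 ± 0.22 (SD, n = 3 each), with a log2 fold change of -0.59 ± 0.20 (SE) and a limma adjusted p of 0.233. Of its 6 probe sets, 4 had groups apart on the lower side, at -0.97, -0.96, -0.83 and -0.59, and the other 2 were at -0.04 and 0.03. In the most different of them the gap between control 2 and endosulfan 2 was wider, at 7.53 against 7.22. The gene's value was -0.31 without replicate 1 of both groups and -0.25 with a spike-in covariate. ATP2A3, a related pump, was at 5.74 to 5.90 in control and 5.92 to 6.18 in endosulfan arrays, a log2 fold change of 0.24 ± 0.12 (SE).

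Among the 6 genes that carry calcium out across the plasma membrane, SLC8A3 and ATP2B2 were lower at an unadjusted p below 0.05, where 10.5% of all genes are, and 0 were higher, where 6.64% are. SLC8A3, a sodium-calcium exchanger of brain and muscle, was at 9.01, 8.39 and 8.44 in control and at 7.92, 8.27 and 7.88 in endosulfan arrays. Control 1 stood above the rest, and endosulfan 2 came within 0.13 of control 2. The means were 8.61 ± 0.35 and 8.02 ± 0.21 (SD, n = 3 each), with a log2 fold change of -0.59 ± 0.19 (SE) and a limma adjusted p of 0.222, on the gene's single probe set. The value was -0.34 without replicate 1 of both groups and -0.33 with a spike-in covariate. The exchangers SLC8A1 and SLC8A2 were at -0.01 and 0.09, and all 5 probe sets of SLC8A2 lay between 0.05 and 0.22.

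ATP2B2, a plasma membrane pump enriched in neurons, was at 6.14, 5.58 and 5.85 in control and at 5.42, 5.42 and 5.39 in endosulfan arrays. The endosulfan arrays were nearly equal, and the control arrays differed among themselves by more than the groups did. The log2 fold change was -0.45 ± 0.15 (SE), with a limma adjusted p of 0.226. Its 5 probe sets lay on both sides: they ran from -0.45 to 0.30, with 3 lower and 2 higher, and their median per array gave 0.065 and their mean -0.07. The pumps ATP2B1 and ATP2B4 were at 0.10 and 0.01, with all values of ATP2B1 below the array medians. ATP2B4 had 1 of 5 probe sets at -0.64, in which control 1 was at 5.72 and the other arrays at 4.21 to 4.81.

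The release channels of the store held both the lowest and the highest value of the 37 genes. ITPR1 was at 7.86, 6.99 and 7.22 in control and at 6.12, 6.89 and 6.33 in endosulfan arrays. The arrays ran from control 1 at the top to endosulfan 1 at the bottom, with control 2 and endosulfan 2 only 0.10 apart. The means were 7.36 ± 0.45 and 6.44 ± 0.40 (SD, n = 3 each), which gave a difference of -0.91 ± 0.27 (log2, SE) with a limma adjusted p of 0.212. All 3 probe sets were on the lower side, at -0.91, -0.79 and -0.13. On the second of these the gap between control 2, at 4.94, and endosulfan 2, at 4.61, was wider. The gene's value was -0.50 without replicate 1 of both groups and -0.52 with a spike-in covariate.

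ITPR2, a receptor of the same family, was at 3.13, 3.37 and 3.37 in control and at 3.66, 3.56 and 3.78 in endosulfan arrays. All of these values lay below the array medians, and all endosulfan values were above all control values, by at least 0.19. The log2 fold change was 0.38 ± 0.12 (SE), with a limma adjusted p of 0.22. The other probe sets of ITPR2 were at 0.10 and -0.02, and the median of its probe sets gave 0.0046. ITPR3 was at -0.09, and the ryanodine receptors RYR1, RYR2 and RYR3, which amplify calcium signals by calcium-induced release, were at 0.07, 0.08 and 0.13, each with overlapping groups. All values of ITPR3 and of the ryanodine receptors also lay below the array medians.

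Of the 5 genes of store-operated entry, 4 lay on the higher side, as did 60.2% of all genes, and 3 of these had groups that did not overlap, as did 12.4% of all genes in that direction. The fifth, STIM2, lay on the lower side at -0.04 on its brightest probe set, with 3 of its 4 probe sets lower. That brightest probe set was above 0 when arrays were centred on their medians. ORAI2, a pore-forming subunit of the entry channel, was at 9.26, 9.40 and 9.42 in control and at 9.91, 9.47 and 9.73 in endosulfan arrays. Endosulfan 2 lay just above the highest control array, by 0.05. The means were 9.36 ± 0.09 and 9.70 ± 0.22 (SD, n = 3 each), 1.27-fold apart, with a log2 fold change of 0.34 ± 0.14 (SE) and a limma adjusted p of 0.271. All 4 probe sets of ORAI2 were on the higher side, from 0.34 to 0.49, with overlap of the groups in 2. The value was 0.19 without replicate 1 of both groups and 0.29 with a spike-in covariate.

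ORAI1, the subunit best known from T cells, was at 6.43, 6.84 and 6.74 in control and at 6.94, 6.93 and 6.93 in endosulfan arrays. Its endosulfan arrays were almost identical, and control 1 was the lowest control. The log2 fold change was 0.26 ± 0.13 (SE), with a limma adjusted p of 0.342, and it was 0.14 without replicate 1 of both groups. ORAI3 was at 0.23 with overlapping groups, and its value was -0.05 without replicate 1 of both groups. The store sensor STIM1 was at 6.24 to 6.34 in control and 6.35 to 6.69 in endosulfan arrays, with endosulfan 1 well above the others. STIM2, the sensor that responds to small losses from the store, was at -0.04 on its brightest probe set. Of the remaining probe sets of STIM2, named here after their values were seen, 2 were at -0.71 ± 0.17 and -0.62 ± 0.13 (log2 fold change, SE), with the smallest p among all 119. The first was at 6.08, 5.67 and 5.73 in control against 4.81, 5.27 and 5.29 in endosulfan arrays, and the second at 3.90, 3.50 and 3.66 against 3.04, 3.13 and 3.03. In both the groups were apart, and the limma adjusted p over all probe sets was 0.215 for each.

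MCU, the pore of the mitochondrial uniporter, was at -0.18, with control arrays from 6.08 to 6.70 and endosulfan arrays from 5.99 to 6.42. The buffers were on the higher side: CALB1, calbindin, was at 3.73, 3.88 and 3.74 in control and at 4.30, 4.12 and 3.90 in endosulfan arrays. All of these were below the array medians, and control 2 and endosulfan 3 were 0.021 apart. The log2 fold change of CALB1 was 0.32 ± 0.13 (SE), with a limma adjusted p of 0.274, and its other probe set was at 0.05. CALB2, calretinin, was at 0.12 with overlapping groups.

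Of the 3 measured subunits of calmodulin-dependent kinase II, the kinase that holds a trace of past calcium signals, CAMK2G was at 7.81, 7.77 and 7.79 in control and at 7.68, 7.49 and 7.54 in endosulfan arrays. The control arrays were within 0.05 of each other and all above the endosulfan arrays, while the log2 fold change was small, at -0.22 ± 0.11 (SE), with a limma adjusted p of 0.325. Its 7 probe sets ran from -0.22 to 0.17. CAMK2D was at 7.02, 6.46 and 6.21 in control and at 5.38, 6.50 and 6.26 in endosulfan arrays. The groups overlapped, and endosulfan 1 alone stood low. The 4 probe sets of CAMK2D were all on the lower side, from -0.80 to -0.11, and the gene's value was 0.04 without replicate 1 of both groups. CAMK2A was at 0.08.

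**Figure D3:**
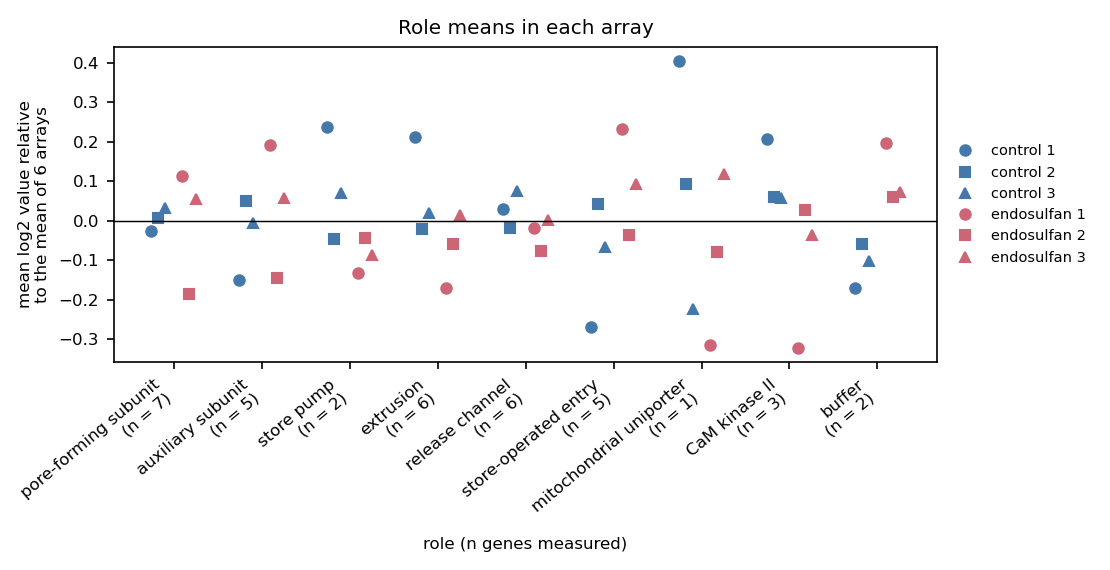
Mean log2 value of the genes of each role (x axis, n genes measured) in each array, relative to the mean of the 6 arrays (y axis). The groups are apart for the buffers (2 genes) and narrowly for the kinase subunits (3 genes). In the store pumps control 2, at -0.05, lies beside endosulfan 2, at -0.04.

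By role, averaged over the genes of each in an array, the groups were apart for the buffers, at -0.17 to -0.06 in control and 0.06 to 0.20 in endosulfan arrays relative to the 6-array mean, over 2 genes. For the 3 kinase subunits they were narrowly apart, at 0.06 to 0.21 and -0.32 to 0.03. The groups of CAMK2D and of CAMK2A themselves overlapped. How often sets of 2 or 3 genes have groups apart was not counted. For store-operated entry control 1 was lowest at -0.27 and endosulfan 1 highest at 0.23, with control 2, at 0.04, above endosulfan 2, at -0.04. For the release channels and the pores the groups overlapped. The median log2 fold change was 0.04 for the 7 pores, 0.23 for the 5 auxiliary subunits, 0.00217 for the 6 extrusion genes, 0.07 for the 6 release channels, 0.23 for the 5 store-operated entry genes and -0.22 for the 3 kinase subunits.

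Probe sets of 1 gene often lay on different sides of 0. Of the 30 genes with several, 12 had all of them on one side (40%, against 52.8% of all 11734 genes with several), 4 lower and 8 higher. The 4 lower were ITPR1, CACNA2D2, CAMK2D and SLC8A1, whose brightest probe set was above 0 when arrays were centred on their medians, and the 8 higher were ORAI2, ORAI3, CACNB1, CACNB3, CACNA1G, SLC8A2, RYR1 and CALB1. Over the 119 probe sets 0 passed an adjusted p of 0.05 with limma, against 0.00811% of all probe sets. At an unadjusted p below 0.05 there were 18 lower (15.1%, against 9.21% of all) and 8 higher (6.72%, against 6.3%). The groups were apart in 20 lower (16.8%, against 9.24% of all) and 11 higher (9.24%, against 11.5%). Of all probe sets 39.9% had a log2 fold change below 0 and 60.1% above, and the median of the 119 was 0.04 beside 0.05. These counts are not over independent items, since probe sets of 1 gene share its RNA, and ATP2A2 alone gave 4 of the 18.

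**Figure D4:**
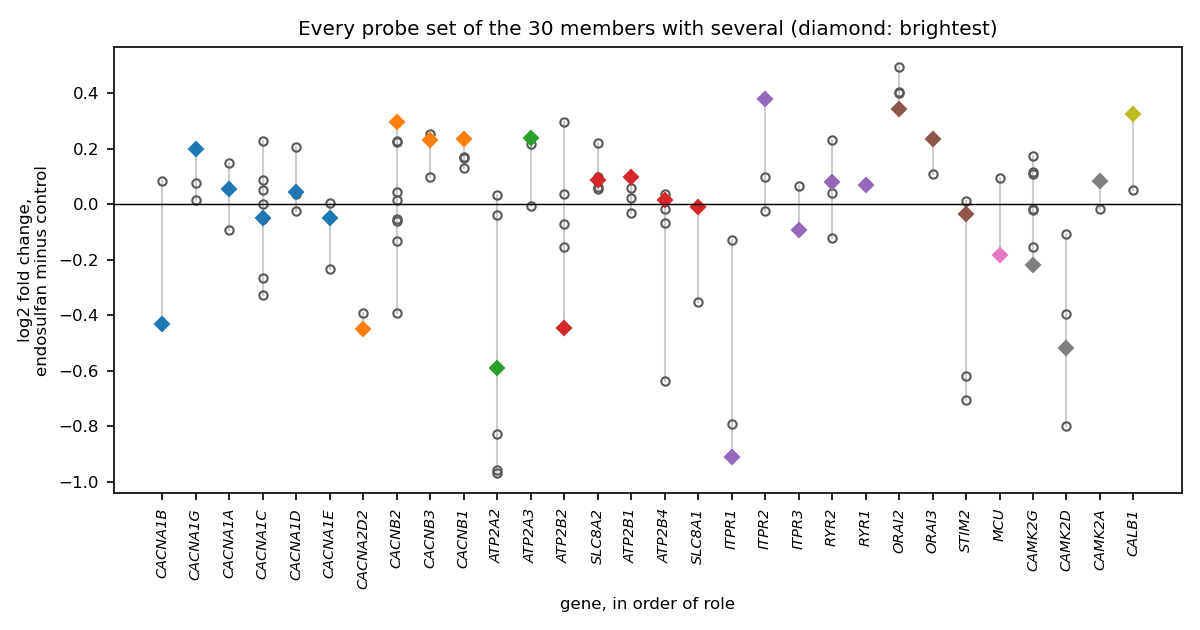
Log2 fold change (y axis, endosulfan minus control) of every probe set of the 30 genes with several (x axis, in order of role), with the brightest as a diamond. The 6 probe sets of ATP2A2 range from -0.97 to 0.03, while the 4 of ORAI2 lie between 0.34 and 0.49.

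A further list of 80 calcium genes outside the 37, with accessory subunits, other exchangers, uniporter regulators, calcium-binding proteins, calcineurin, NFAT factors and calmodulin kinases, had 75 genes measured. None passed with limma. Before adjustment 7 were lower (9.33%) and 4 higher (5.33%) with a p under 0.05, both shares below the 10.5% and 6.64% of all genes. The median log2 fold change was 0.02. The 6 with the smallest p were NFAT5, CALML4, CREB1, MCUB, CALU and SLC24A1. NFAT5, the factor of the osmotic stress response, was at 6.95, 6.16 and 6.93 in control and 5.44, 5.89 and 5.79 in endosulfan arrays, a log2 fold change of -0.98 ± 0.23 (SE) with a limma adjusted p of 0.196. Its groups did not overlap, and control 2 was the lowest of the control arrays. Of its 4 probe sets 3 were on the lower side, and the highest was at 0.10. The calmodulin-like gene CALML4 was at 0.59, with the same adjusted p of 0.196, on the one of its 4 probe sets that lay on the higher side, and the lowest was at -0.31. MCUB, a subunit that dampens the mitochondrial uniporter, was at 0.49, with both its probe sets on the higher side and the brighter at 8.73 to 8.81 in endosulfan and 7.96 to 8.46 in control arrays. CREB1, a transcription factor that calcium signals activate, was at -0.58, with all 7 probe sets on the lower side. The exchanger SLC24A1 was at -0.51, and its other probe set at 0.18. CALU, calumenin of the secretory pathway, was at -1.03 with overlapping groups and all 3 probe sets on the lower side.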

How the data were processed

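RNA of 3 control and 3 endosulfan samples was measured on 6 Affymetrix human expression arrays. The authors deposited 1 table of log2 values. Per the submitters' processing notes these come from Affymetrix Expression Console with RMA, which subtracts background, gives all arrays the same quantiles and summarises each probe set. Versions and options are not stated there. The quantile step removes a shift shared by most transcripts. The number of arrays limits the precision, and no call above background could be made.

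Groups came from the agent label and replicate numbers from the titles. Of 49395 rows, 102 were array controls, 44988 named a single gene, 1832 more than one and 2473 none. The IDs of 44961 matched RefSeq (GRCh38.p14), with 0 symbols updated, and that table gave names alone, since the authors' build is not known. Promoters are RefSeq's, and 30 of the 37 genes matched.

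Endosulfan was compared with control by limma 3.58.1 (lmFit, eBayes) in R 4.3.3 over all 18132 genes or 49293 probe sets, two-sided, with Benjamini-Hochberg adjustment and a threshold of 0.05. Given in full are the 12 genes of smallest p, and the 6 of smallest p from the further list. The genes, lists, roles and motifs were chosen with earlier results of these data known, among them the result on EGR1. The alternatives were the replicate block, further quantile normalization, centring, a level filter, trended and robust moderation, array weights, no moderation, the mean or median of probe sets, a spike-in covariate and leaving out arrays. On data simulated for this comparison over 18132 genes the fit recovered 18% of genes changed by 0.58 on the log2 scale, 88% at 1 and 100% at 2, with 10 false calls among 163. Changes were planted in 50 genes at each of these sizes and at 3, where the fit recovered 100%. The simulated noise was independent for each gene, so effects shared by the genes of an array were left out. Figures were drawn with matplotlib 3.10.9.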

Additional observations from a re-analysis of the deposited data

Results flagged for a closer look

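Signals outside the comparison of transcripts differed between the groups. The poly-A spike-ins, bacterial RNAs added before labelling, were higher by 1.55 on the log2 scale in endosulfan arrays, at 6.57 ± 1.02 in control and 8.11 ± 0.60 in endosulfan arrays (SD, n = 3 each, two-sided exact permutation p = 0.2). For the controls added at hybridisation the difference was 0.644, from 10.05 ± 0.29 to 10.70 ± 0.19 (SD, n = 3 each), and the exact permutation test gave p = 0.1, its lower limit here. The signal at the 3′ end of the GAPDH transcript minus that at its 5′ end, a measure of RNA quality, also had groups apart. It was at 0.70 to 0.81 in control and 0.82 to 0.89 in endosulfan arrays (log2, n = 3 each, two-sided exact permutation p = 0.1). The part of these 3 measures in the calcium genes' differences, or in the disagreement between probe sets of 1 gene, was not tested.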

How the results depend on the processing

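The count of calcium genes past the threshold, 0, held in every setting run except limma's array weights, where 13 passed, with 11 higher at an unadjusted p below 0.05 and 5915 of all genes past the threshold. Those weights rested on control 3 and endosulfan 3, at 4.22 and 5.46 against 0.27 to 0.66 for the other arrays, and their fit stopped before it converged. The 1 gene of all genes past the threshold became 0 with the replicate block, without moderation, with the mean or the median of a gene's probe sets, with the spike-in covariate, without replicate 1 of both groups and without any 1 array (0 to 0). The count of calcium genes higher at an unadjusted p below 0.05, 3, was 1 with the replicate block, without moderation, with the level filter and with the mean or median of the probe sets, 0 with the spike-in covariate and without replicate 1 of both groups, and 1 to 6 with 1 array left out. The count lower, 6, was 3 without moderation and without replicate 1 of both groups, 0 with the spike-in covariate and 3 to 6 with 1 array left out. Shares of all genes at an unadjusted p below 0.05 were not counted in these alternative settings. The median log2 fold change of the calcium genes was -0.0054 with the spike-in covariate. Spike-in means were 6.57 in control and 8.11 in endosulfan arrays, so that covariate cannot be fully separated from the group difference. With the median of the probe sets CACNB2 was at -0.14 and ATP2B2 at 0.065, the other sign. Over 616 values of single genes in the alternative settings 47 had the other sign, 45 of them in genes outside the 12 of smallest p, with log2 fold changes mostly near 0. The cause was not tested. Same-numbered arrays had deviations from their group means that correlated at -0.55, -0.47 and 0.12. Differently numbered arrays were at -0.40 to 0.61, the highest for control 1 with endosulfan 2. Deviations within a group of 3 are tied to each other, so these values cannot settle whether the numbers pair the arrays. At this number of arrays the simulated fit recovered 18% of changes of 0.58, so differences of that size would mostly be missed. Most of the simulation's 163 calls were planted changes, so that count is not comparable with the 1 gene called in the data. The simulation drew independent noise for each gene and left out effects shared by the genes of an array. Its recovery of 88% at 1 on the log2 scale may therefore not hold here, and larger differences may be missed too.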
